A study of Mus musculus with 6 samples.

Results

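The enzymes described here are the UDP-glucuronosyltransferases (UGT), the cytosolic sulfotransferases (SULT) and the soluble glutathione S-transferases (GST) of mouse liver. They were chosen by name alone: a gene was a member if its symbol was Ugt1 to Ugt3, Sult or Gst followed by a subfamily letter and a number. This gave 64 of the 56534 genes or loci in the deposited file, with 21 UGT, 21 SULT and 22 GST genes. A mean of at least 1 FPKM (fragments scaled to the length of the gene and to the mapped fragments of the library) over the 6 libraries was reached by 46 of them: 19 UGT, 8 SULT and 19 GST genes. The levels below are FPKM, which are per length and so can be set side by side between genes.

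RNA-seq was done on liver of C57BL/6 mice fed a diet with 60% of its energy from fat for 16 weeks. The 3 control libraries (CON 1 to 3) carry the genotype label wild type. The 3 knockout libraries (LKO 1 to 3) carry the label CD36-/-, and the title of the series describes a knockout limited to hepatocytes. CD36 is a membrane protein that takes up long-chain fatty acids. All 6 libraries share the strain, the diet and its duration. Sex, age and the driver of the deletion are not in the labels, and neither is whether each library is a different animal. A p-value here therefore measures the spread between libraries, which may be technical. In whole liver, fewer cells of a type and less RNA per cell cannot be told apart.

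Phase II enzymes attach a polar group to drugs, hormones, bilirubin, bile acids and products of lipid peroxidation, which makes these compounds easier to excrete. UGTs sit in the endoplasmic reticulum and transfer glucuronic acid from UDP-glucuronic acid, SULTs transfer sulfate from the cytosolic donor PAPS, and GSTs couple glutathione to electrophiles. In mouse liver many of these genes differ between the sexes. Many also respond to nuclear receptors such as CAR and PXR, to the dioxin receptor AHR, or to NRF2, a transcription factor activated by oxidative stress.

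Some members are close to each other in sequence, and the sequences show where an FPKM of 1 gene may hold fragments of another. The Ugt1a genes are alternative first exons spliced to 1 common set of later exons. In the GENCODE M21 transcripts, the 9 tested Ugt1a genes had the same 735 coding bases after the junction. The lines below give 30 bases before the junction in lower case, which differ between most of the genes, and 30 bases after it in capitals, which do not.
Ugt1a1: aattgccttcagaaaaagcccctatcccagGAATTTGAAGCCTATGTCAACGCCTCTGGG
Ugt1a6a: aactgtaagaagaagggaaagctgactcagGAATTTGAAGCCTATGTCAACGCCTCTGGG
Ugt1a9: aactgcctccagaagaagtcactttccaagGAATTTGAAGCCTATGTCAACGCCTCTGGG
Ugt1a2: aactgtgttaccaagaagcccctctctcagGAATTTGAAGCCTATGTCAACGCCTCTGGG
Ugt1a8: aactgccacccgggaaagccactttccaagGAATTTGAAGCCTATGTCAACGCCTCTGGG
Ugt1a10: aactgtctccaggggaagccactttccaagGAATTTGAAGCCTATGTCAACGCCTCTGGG
A stretch of 50 bases was taken at every position of each transcript and looked up in all other genes. Of these stretches, 58.2% of Ugt1a1, 62.0% of Ugt1a9, 59.7% of Ugt1a8 and 63.7% of Ugt1a2 also occurred in another gene. All those of Ugt1a6a (100%) occurred in Ugt1a7c. How the authors' assembler divided fragments of the common exons among these genes is not given in the sources used here, so the single Ugt1a values are uncertain.

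The pi-class enzymes Gstp1 and Gstp2 are neighbouring near-copies. Their coding sequences of 630 bases differed at 12 positions, an identity of 98.1%, while Gstp1 and Gstp3 were 71.7% identical. The first 60 coding bases are shown because 6 of the 12 differences lie there, in capitals.
Gstp1: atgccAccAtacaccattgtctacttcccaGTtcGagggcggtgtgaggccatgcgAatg
Gstp2: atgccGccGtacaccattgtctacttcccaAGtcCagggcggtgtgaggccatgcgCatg
Of the 50-base stretches of Gstp1, 62.3% also occurred in Gstp2. Those of Gstp3, Gsta3, Gstz1, Sult2a8, Sult1b1 and Ugt2b1 occurred in no other gene.

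A promoter, from 250 bases before to 50 bases after the gene start (RefSeq, GRCm38.p6), was found for 41 of the 46 members, with 50 promoters in all. This build is not the one in the submitters' notes and is used for sequence only. The promoters of Gstp1 (chr19:4037863-4038162, minus strand) and Gstp2 (chr19:4042172-4042471, minus strand) are printed because these genes had the highest GST level and the greatest GST difference. Capitals mark a match to TGANTCA, the binding motif of AP-1.
Gstp1 promoter: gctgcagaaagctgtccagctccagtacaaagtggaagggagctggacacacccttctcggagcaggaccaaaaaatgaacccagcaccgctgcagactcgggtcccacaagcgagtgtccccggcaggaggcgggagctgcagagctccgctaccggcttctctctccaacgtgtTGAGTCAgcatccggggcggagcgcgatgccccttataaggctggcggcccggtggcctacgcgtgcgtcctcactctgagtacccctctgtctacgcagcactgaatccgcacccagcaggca
Gstp2 promoter: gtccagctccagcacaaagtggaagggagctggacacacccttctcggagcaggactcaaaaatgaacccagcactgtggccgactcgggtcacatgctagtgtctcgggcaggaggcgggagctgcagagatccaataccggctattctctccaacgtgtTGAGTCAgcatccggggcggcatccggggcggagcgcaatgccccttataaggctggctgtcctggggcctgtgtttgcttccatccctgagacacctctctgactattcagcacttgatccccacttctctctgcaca
The match begins 74 bases before the Gstp1 start and 89 bases before the Gstp2 start. On either strand, the motif occurred in 7.8% of 32851 promoters and in 10 of the 50 promoters of the members. Apart from the motif of the next paragraph, others were searched too. TGACNNNGC, the core of the antioxidant response element, occurred in 12.4% of all promoters and in 3 of the 50. GCGTG, the core of the xenobiotic response element, occurred in 32.4% and in 10 of the 50. AGGTCA, a nuclear receptor motif, occurred in 16.3% and in 12, and the TATA box TATAAA in 13.6% and in 8. Whether members differ from all promoters in any motif was not tested.

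For the Ugt1a locus the promoters of Ugt1a1 (chr1:88211709-88212008), Ugt1a9 (chr1:88070529-88070828) and Ugt1a10 (chr1:88055161-88055460), all on the plus strand, are printed. They are the Ugt1a promoters that hold the match marked below. Ugt1a1 on the one hand, and Ugt1a9 and Ugt1a10 on the other, differed between the groups in opposite directions. The promoters of Ugt1a2, Ugt1a5, Ugt1a6a, Ugt1a7c and Ugt1a8 hold no such match. Of these genes, Ugt1a2 and Ugt1a8 also had positive log2 fold changes, of 2.41 and 2.80. Capitals mark a match, on the opposite strand, to the first 10 letters of the consensus of HNF1, a hepatocyte transcription factor: GTTAAT, any base, then ATT.
Ugt1a1 promoter: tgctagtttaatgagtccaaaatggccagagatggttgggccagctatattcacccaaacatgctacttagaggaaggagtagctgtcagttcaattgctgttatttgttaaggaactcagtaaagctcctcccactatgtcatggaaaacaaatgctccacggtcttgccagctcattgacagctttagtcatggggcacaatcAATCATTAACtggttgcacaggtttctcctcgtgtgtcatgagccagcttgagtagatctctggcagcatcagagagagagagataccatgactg
Ugt1a9 promoter: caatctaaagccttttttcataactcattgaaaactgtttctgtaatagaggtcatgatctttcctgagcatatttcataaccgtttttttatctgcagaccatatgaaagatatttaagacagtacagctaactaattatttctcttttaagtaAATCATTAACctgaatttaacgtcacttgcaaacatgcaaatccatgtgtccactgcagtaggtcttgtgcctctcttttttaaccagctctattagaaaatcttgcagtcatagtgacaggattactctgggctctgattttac
Ugt1a10 promoter: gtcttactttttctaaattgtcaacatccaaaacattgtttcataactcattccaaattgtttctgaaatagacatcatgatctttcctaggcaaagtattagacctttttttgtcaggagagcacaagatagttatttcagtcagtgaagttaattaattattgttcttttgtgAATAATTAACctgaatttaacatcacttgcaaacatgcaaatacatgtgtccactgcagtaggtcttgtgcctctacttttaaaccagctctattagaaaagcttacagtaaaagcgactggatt
The matches begin 45, 95 and 75 bases before the starts of Ugt1a1, Ugt1a9 and Ugt1a10. The motif, searched on both strands, occurred in 0.4% of all promoters and in those of 4 members, the fourth being Sult1d1. It overlaps none of the AP-1 matches above, and a match of letters is a description of the sequence only.

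The targeted gene was measured first. In CON 1 to 3, Cd36 was at 62.0, 26.5 and 19.7 FPKM, against 2.73, 3.70 and 10.2 FPKM in LKO 1 to 3. The groups did not overlap, and LKO 3 held the most Cd36 of the knockout libraries. Its log2 fold change was -2.5 (SE 0.51), with a limma adjusted p of 0.163. An exact two-sided permutation test of the FPKM gave p = 0.1, the lowest that 3 against 3 libraries allow.

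The libraries differed in ways that touch the members. The major urinary proteins (Mup), abundant secreted proteins of male liver, made up 6.22% of the FPKM of CON 1, 15.6% of CON 2, 22.1% of CON 3, and 29.4%, 28.9% and 23.9% of LKO 1 to 3. CON 1 held the highest value of 27 of the 46 members (58.7%), against 40.2% of all genes tested. Across all genes tested, LKO 3 was closer to the controls than to the other knockout libraries. Its Pearson's r, on log2(FPKM + 1), was 0.952, 0.969 and 0.976 with CON 1 to 3. With LKO 1 and LKO 2 it was 0.949 and 0.934, while LKO 1 and LKO 2 correlated by 0.977. Deviations of a library from the mean over all 6 also followed gene length, with Spearman's rho across 11104 genes between 0.10 and 0.29 in the CON libraries, 0.21 in LKO 3, and -0.33 and -0.30 in LKO 1 and LKO 2. The median length was 1182 bases for the GST, 2227 for the UGT, 1994.5 for the SULT genes and 3010 for all genes tested. Whether composition or length had a part in the differences below was not tested beyond the alternative scalings given with them.

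No member passed the threshold (limma, Benjamini-Hochberg adjusted p under 0.05 over 11104 genes) in either direction. Among all genes 1 passed as lower in LKO (0.00901% of genes in either direction) and none as higher (0.0%). It is the predicted gene Gm44002, named here after its value was seen, which was at 5.23, 3.65 and 5.41 FPKM in CON and at 0, 0 and 0.14 FPKM in LKO. Gm44002 reached the FPKM minimum only through CON, so the filter fixed its direction. With no filter on low values no gene passed in either direction. At an unadjusted limma p under 0.05, 9 members were lower (19.6%) and 6 higher (13.0%), against 18.9% and 3.25% of all genes. Every LKO library was below every CON library for 15 members (32.6%; 24.3% of all genes), and above for 4 members (8.70%; 3.92% of all genes). Ugt1a2 and Ugt1a8, both among the 6 higher, averaged 0.20 and 0.02 FPKM in CON. They reached the FPKM minimum only through LKO, so the filter fixed their direction. This also holds for Ugt1a8 among the 4 members without overlap. Sult1c2, among the 15 members lower without overlap, averaged 0.90 FPKM in LKO. It reached the minimum only through CON, so its direction was fixed too. The 6 higher members are 4 genes of the Ugt1a locus and the near-copies Gstp1 and Gstp2, and so are not 6 independent loci. The 9 lower members are not independent either. They include 4 other genes of the Ugt1a locus, and Ugt3a1 and Ugt3a2, whose coding sequences were 93.2% identical.

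The direction of the counts depended on the scaling between libraries. The median log2 fold change was -0.30 over the members and -0.23 over all genes. After each library was scaled by its median ratio to the others, these medians were -0.01 and 0.01. The counts at an unadjusted limma p under 0.05 then became 3 lower and 8 higher members, against 7.96% and 10.2% of all genes. Groups that did not overlap were then found for 4 members as lower and 7 as higher, against 11.1% and 12.3% of all genes. Values below 0 in the text are therefore to be read against -0.23, the median of all genes.

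**Figure D1:**
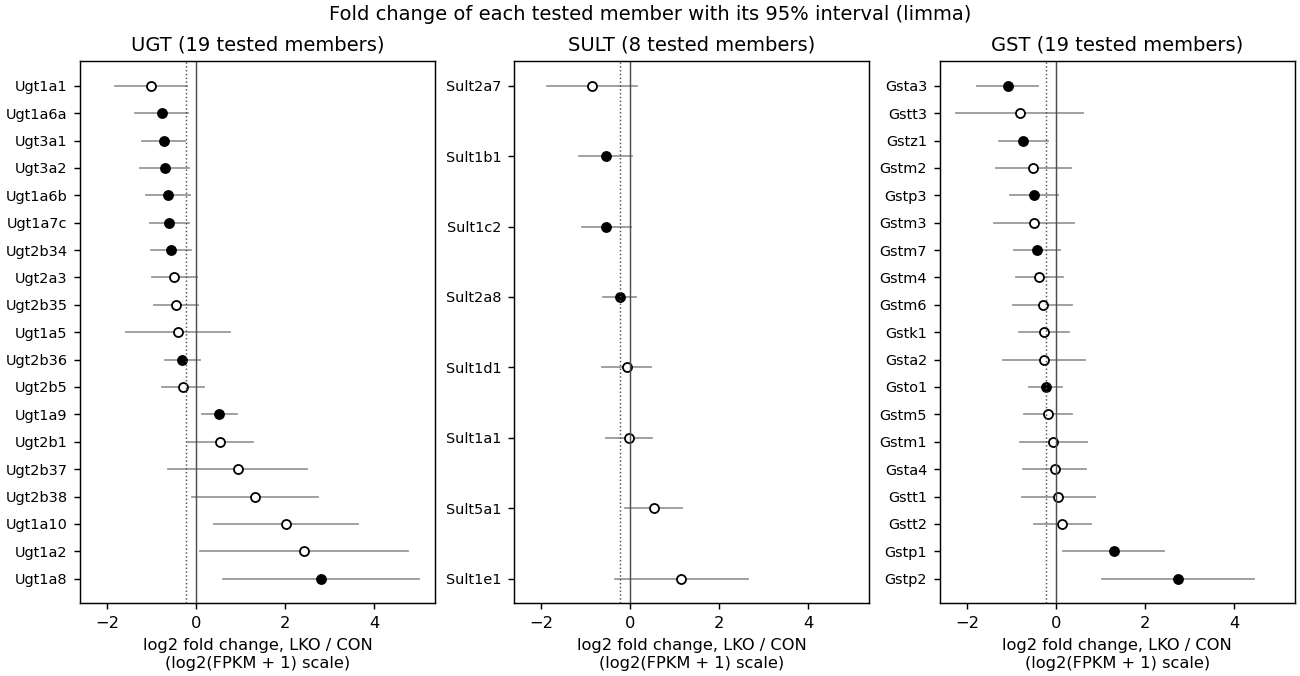
Log2 fold change (LKO against CON, log2(FPKM + 1) scale) of the 46 tested members, by family, with 95% confidence intervals as gray bars. Filled points are members whose groups did not overlap and the dotted line is the median of all 11104 genes, -0.23; 18 of the 46 members lie to its right, farthest among them Ugt1a8, Gstp2, Ugt1a2, Ugt1a10, Ugt2b38 and Gstp1.

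The GST family held the highest levels. Of its 19 tested genes, 2 were lower and 2 higher at an unadjusted limma p under 0.05, against 18.9% and 3.25% of all genes, with a median log2 fold change of -0.28. After median-ratio scaling 1 was lower and 2 were higher, with a median of -0.002. Gstp1, a cytosolic transferase that is more abundant in male than in female mouse liver, was the most abundant member in 5 of 6 libraries. In CON 1 to 3 it was at 612, 1573 and 2694 FPKM, against 3599, 3618 and 2944 FPKM in LKO 1 to 3. All LKO libraries were above all CON libraries, but the CON libraries spanned a wide range and CON 3 came close to LKO 3. The means were 1626 ± 1042 and 3387 ± 384 FPKM (SD, n = 3), a 2.08-fold difference. The log2 fold change was 1.29 (SE 0.49, 95% interval 0.16 to 2.43), with a limma adjusted p of 0.204. Without CON 1 it was 0.71, and with median-ratio scaling it was 1.59.

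Gstp2 stood at 3.38, 16.0 and 39.6 FPKM in CON and at 106, 142 and 58.4 FPKM in LKO. The order of the 6 libraries was that of Gstp1, with CON 1 lowest and LKO 3 lowest among the knockouts. Its log2 fold change of 2.74 (SE 0.74) had a limma adjusted p of 0.176, and without CON 1 it was 1.88. Of the summed FPKM of Gstp1, Gstp2 and Gstp3, Gstp2 made up 0.530%, 1.0% and 1.44% in CON and 2.85%, 3.76% and 1.94% in LKO. This share was higher in each LKO library than in any CON library, so that the listed FPKM of the 2 near-copies did not differ by the same factor. Of the 50-base stretches of Gstp2, 72.6% occurred in another gene and 64.3% in Gstp1. How fragments were divided between the copies is not given in the sources used here, so this share is uncertain. When the 3 Gstp genes were summed before the fit, the log2 fold change was 1.30 (limma adjusted p = 0.199).

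Gstp3, whose sequence shares no 50-base stretch with the other 2 genes, lay on the other side. It was at 21.9, 12.3 and 13.3 FPKM in CON and at 10.8, 10.5 and 10.4 FPKM in LKO. Each LKO library was below each CON library, with a log2 fold change of -0.50 (SE 0.23, limma adjusted p = 0.241). With median-ratio scaling this value was -0.22.

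Gsta3, an alpha-class enzyme that conjugates aflatoxin epoxide in mouse liver, was the second most abundant GST by mean level. Its FPKM were 1265, 1110.4 and 603 in CON and 389, 485 and 471 in LKO. The groups did not overlap, and CON 3 was the control closest to the knockouts, as it was for Gstp1. Means of 993 ± 346 and 449 ± 51.7 FPKM (SD, n = 3) gave a 2.21-fold lower level in LKO. The log2 fold change was -1.08 (SE 0.30, 95% interval -1.77 to -0.39), the limma adjusted p was 0.179, and median-ratio scaling gave -0.78.

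Gstz1, which isomerizes maleylacetoacetate in the breakdown of tyrosine, was at 740.2, 578 and 546 FPKM in CON and at 337, 314 and 481 FPKM in LKO. The knockout libraries were all lower, with LKO 3 nearest to the controls. This gave a log2 fold change of -0.73 (SE 0.23), with a limma adjusted p of 0.186, and -0.43 after median-ratio scaling.

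Of the mu-class genes, Gstm1, the most abundant, was at 814, 389.8 and 427 FPKM in CON and at 484, 636 and 391 FPKM in LKO. The groups overlapped and CON 1 was highest. Its log2 fold change was -0.06 (SE 0.32, 95% interval -0.81 to 0.69, limma adjusted p = 0.925), and 0.24 after median-ratio scaling. All 7 Gstm genes had a value below 0, as had 71.6% of all genes, and 5 of them still did after median-ratio scaling, as did 48.9% of all genes. Of the 7, only Gstm7 had groups that did not overlap, with 37.1, 25.6 and 22.7 FPKM in CON and 21.5, 17.9 and 22.4 FPKM in LKO. At the low end, Gstm3 was at 10.5, 3.34 and 3.21 FPKM in CON and at 2.92, 3.95 and 2.94 FPKM in LKO.

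Of the remaining GST genes, Gsto1, an omega-class enzyme, was at 76.9, 69.6 and 73.6 FPKM in CON and at 69.1, 61.8 and 56.3 FPKM in LKO, a small difference without overlap. Gstt1, a theta-class enzyme, was at 390.3, 207 and 143 FPKM in CON and within that range in LKO, at 222, 278 and 207 FPKM. Gstt3, of the same class, was at 65.1, 25.1 and 8.03 FPKM in CON and 11.8, 14.5 and 13.4 FPKM in LKO, so that the knockouts lay between CON 2 and CON 3. Its log2 fold change of -0.82 had a wide error (SE 0.62, limma adjusted p = 0.420). The genes Gsta1, Gsto2 and Gstt4 had means under 1 FPKM, the highest being Gsta1 with up to 2.5 FPKM in CON 1.

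Summed over the family, GST levels were 4529, 4346 and 4888 FPKM in CON and 5608, 5951 and 4915 FPKM in LKO. Gstp1 made up 13.5%, 36.2% and 55.1% of this sum in CON and 64.2%, 60.8% and 59.9% in LKO. Without Gstp1 and Gstp2 the sum was 3913, 2757 and 2155 FPKM in CON and 1903, 2191 and 1913 FPKM in LKO. The total was thus higher in every LKO library only with Gstp1 counted, and LKO 3 (4915 FPKM) was then close to CON 3 (4888 FPKM). The FPKM of all genes summed to 831928, 928647 and 976871 in CON 1 to 3. In LKO 1 to 3 they summed to 1179405, 1271880 and 959442. The GST sums were not scaled for this, and whether GST levels differ relative to the library total was not tested. The share of Gsta3 was 27.9%, 25.6% and 12.3% in CON and 6.94%, 8.15% and 9.59% in LKO.

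**Figure D2:**
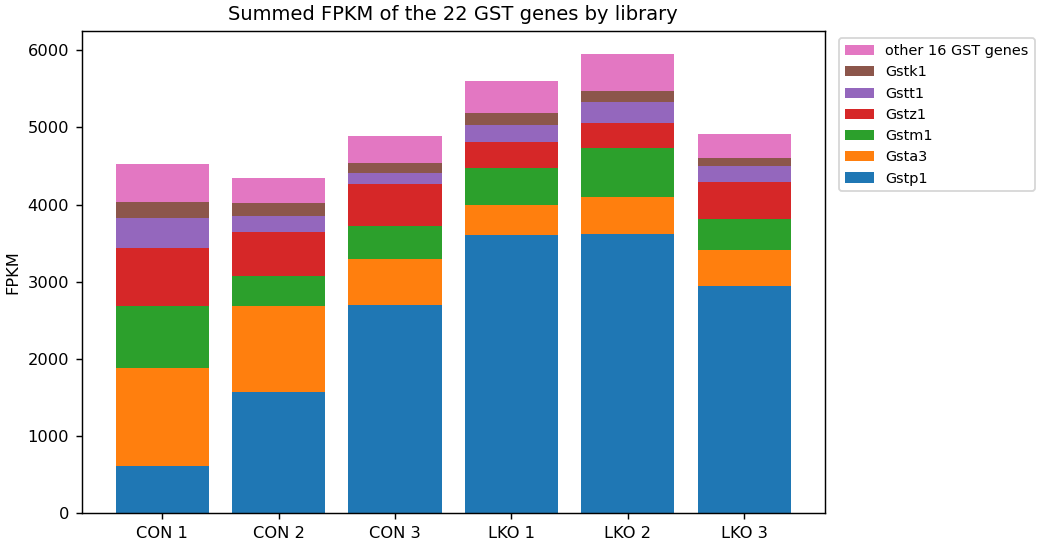
Summed FPKM of the 22 GST genes in each library, stacked by gene. Gstp1 grows from 13.5% of the bar in CON 1 to between 59.9% and 64.2% in the LKO libraries, while the part of the other genes is tallest in CON 1.

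Of the 19 tested UGT genes, 7 were lower and 4 higher at an unadjusted limma p under 0.05, against 18.9% and 3.25% of all genes, with a median log2 fold change of -0.41. The 4 higher include Ugt1a2 and Ugt1a8, which reached the FPKM minimum only through LKO. After median-ratio scaling the balance turned to 2 lower and 5 higher, against 7.96% and 10.2% of all genes, with a median of -0.12. Among them, the Ugt2b genes, which act on steroids, bile acids and fatty acid derivatives, held the greatest part of the family's FPKM. Ugt2b5 was at 332, 345 and 468 FPKM in CON and at 334, 277 and 316 FPKM in LKO, with overlap, and its log2 fold change was -0.29 (SE 0.20, limma adjusted p = 0.386). Ugt2b36 was at 353, 304 and 309 FPKM in CON and at 253, 246 and 279 FPKM in LKO. Its groups did not overlap, but the log2 fold change of -0.31 (SE 0.17, limma adjusted p = 0.292) was close to the median of all genes. Ugt2b34 was at 197, 198 and 217 FPKM in CON and at 129, 119 and 168 FPKM in LKO, again without overlap (log2 fold change -0.57, limma adjusted p = 0.187).

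Ugt2b1 went the other way in level, at 162, 126 and 239 FPKM in CON and 225, 190.4 and 354 FPKM in LKO. The groups overlapped, since CON 3 exceeded LKO 1 and LKO 2, and the log2 fold change of 0.54 (SE 0.31) had a limma adjusted p of 0.309. With median-ratio scaling the log2 fold change of Ugt2b1 was 0.84 and its groups did not overlap. The low Ugt2b37 was at 0.63, 1.68 and 3.22 FPKM in CON and at 2.86, 1.20 and 13.9 FPKM in LKO, where LKO 3 alone was high. Its near-copy Ugt2b38 was at 1.23, 2.48 and 11.2 FPKM in CON and at 12.8, 5.91 and 14.3 FPKM in LKO, with overlap, and its log2 fold change of 1.31 (SE 0.61) had a limma adjusted p of 0.242. The 2 UGT genes below the minimum were Ugt2a1, listed at 0 in all 6 libraries, and Ugt2a2, listed above 0 only in CON 2, at 0.04 FPKM.

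Both Ugt3a genes were lower in LKO. These enzymes differ from other UGTs in using N-acetylglucosamine or glucose as the sugar. Ugt3a1 was at 179, 142 and 117 FPKM in CON and at 90.4, 76.6 and 92.3 FPKM in LKO. The log2 fold change was -0.73 (SE 0.21, 95% interval -1.21 to -0.26), with a limma adjusted p of 0.179. Ugt3a2 was at 206, 182 and 167 FPKM in CON and at 105, 87.8 and 153 FPKM in LKO, a log2 fold change of -0.71 (SE 0.23, limma adjusted p = 0.187). Neither gene's groups overlapped, and after median-ratio scaling the values were -0.44 and -0.41.

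The genes of the Ugt1a locus differed between the groups in opposite directions. Ugt1a1, the enzyme that conjugates bilirubin, was at 345, 265 and 234 FPKM in CON and at 112, 94.6 and 239.8 FPKM in LKO. Both LKO 1 and LKO 2 were well below the controls, while LKO 3 lay among them. Its log2 fold change was -1.02 (SE 0.35, limma adjusted p = 0.191). Ugt1a6a, which acts on small planar phenols, had a similar order of libraries at 91.2, 77.9 and 70.3 FPKM in CON and 44.4, 33.3 and 64.8 FPKM in LKO (log2 fold change -0.78, limma adjusted p = 0.187). Ugt1a7c was at 17.2, 14.0 and 14.6 FPKM in CON and at 8.12, 9.52 and 11.6 FPKM in LKO (log2 fold change -0.60, limma adjusted p = 0.183).

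In contrast, Ugt1a9 was at 20.0, 17.1 and 19.9 FPKM in CON and at 30.2, 28.9 and 23.9 FPKM in LKO. All LKO libraries were above all CON libraries, with a log2 fold change of 0.52 (SE 0.17, 95% interval 0.12 to 0.92, limma adjusted p = 0.187), and 0.80 with median-ratio scaling. The genes Ugt1a2, Ugt1a8 and Ugt1a10 were low or listed at 0 in 4 libraries. Ugt1a8 was at 0.07, 0 and 0 FPKM in CON and at 14.6, 18.6 and 0.18 FPKM in LKO. Ugt1a10 was at 1.24, 1.47 and 0.72 FPKM in CON and at 11.7, 19.7 and 1.43 FPKM in LKO. Ugt1a2 was at 0.21, 0.02 and 0.36 FPKM in CON and at 9.30, 23.6 and 0 FPKM in LKO. For all 3 genes LKO 1 and LKO 2 stood apart from the controls and LKO 3 did not. LKO 3 was also closer to the controls across all genes tested, so this is not particular to the locus. The limma adjusted p was 0.189 for Ugt1a8, 0.191 for Ugt1a10 and 0.219 for Ugt1a2.

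Together, Ugt1a2, Ugt1a8 and Ugt1a10 made up 0.246%, 0.303% and 0.249% of the summed Ugt1a FPKM in CON and 11.4%, 20.8% and 0.378% in LKO. The share of Ugt1a1 was 55.8%, 54.0% and 53.9% in CON and 36.0%, 31.7% and 56.3% in LKO. The sum over the locus was 619, 491 and 433 FPKM in CON and 311, 298 and 426 FPKM in LKO, where each LKO library was below each CON library. Fitted as 1 gene, the locus had a log2 fold change of -0.58 (SE 0.23, limma adjusted p = 0.209), which was -0.28 after median-ratio scaling.

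**Figure D3:**
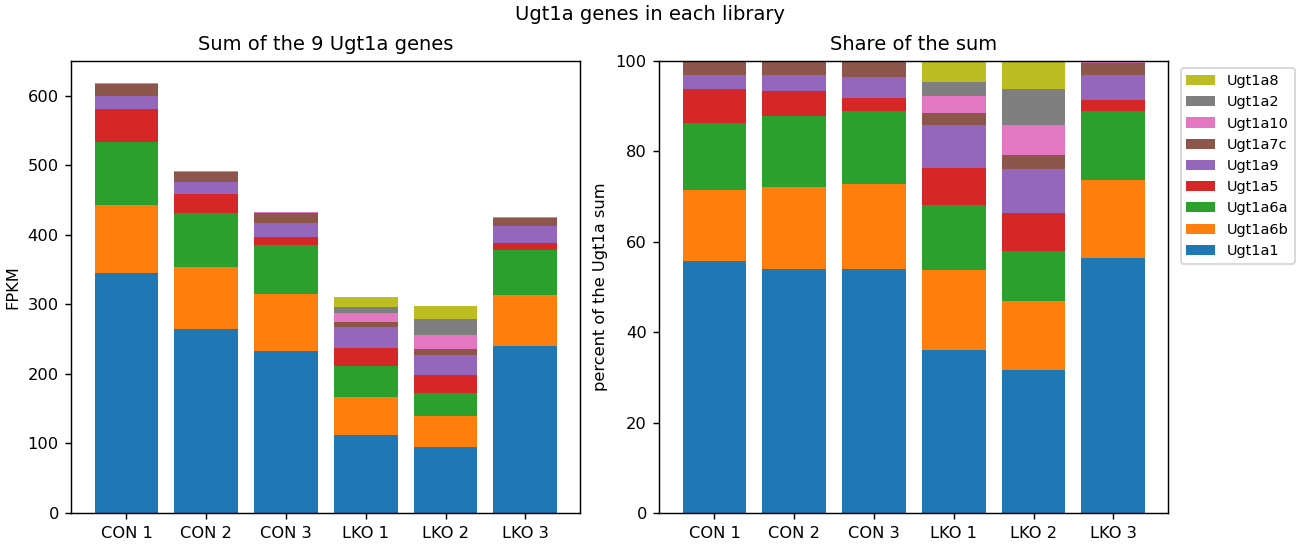
Summed FPKM of the 9 Ugt1a genes in each library (left, stacked by gene) and the share of each gene in percent of that sum (right). LKO 1 and LKO 2 hold 11.4% and 20.8% of Ugt1a2, Ugt1a8 and Ugt1a10, while LKO 3 (0.378%) is close to the controls.

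Whether members passed the threshold depended on LKO 3. Without it, 13 members passed in limma, 8 lower and 5 higher, against 19.0% and 4.6% of all genes. Those lower were Gstz1, Ugt1a1, Ugt1a6a, Ugt1a6b, Ugt1a7c, Ugt2b34, Ugt3a1 and Ugt3a2. Those higher were Gstp2, Ugt1a2, Ugt1a8, Ugt1a9 and Ugt1a10. Of these, Ugt1a2 and Ugt1a8 reached the FPKM minimum only through LKO 1 and LKO 2. With median-ratio scaling and without LKO 3, 7 passed (8.29% of all genes were then lower and 11.3% higher): Ugt1a1, Ugt1a6a and Ugt3a2 as lower, and Ugt1a2, Ugt1a8, Ugt1a9 and Ugt1a10 as higher. Over all alternatives the limma adjusted p of Ugt1a8 ranged from 0.000162 to 0.559 and that of Ugt1a1 from 0.00150 to 0.560. Since LKO 1 and LKO 2 are also the libraries with a negative relation to gene length, length and genotype cannot be told apart once LKO 3 is left out.

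Of the 21 sulfotransferases, 8 reached the minimum and 6 were listed at 0 in all libraries. None of the 8 had an unadjusted limma p under 0.05, and their median log2 fold change was -0.16. After median-ratio scaling 1, Sult5a1, was higher at that p and the median was 0.14. Sult2a8, a bile acid sulfotransferase of mouse liver, was at 400.1, 388 and 386 FPKM in CON and at 331, 347 and 318 FPKM in LKO. The libraries of each group lay close together and the groups did not overlap. The means were 391 ± 7.69 and 332 ± 14.8 FPKM (SD, n = 3). The log2 fold change of -0.24 (SE 0.16, limma adjusted p = 0.377) equalled the median of all genes to within 0.01, and was 0.06 after median-ratio scaling.

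Sult1a1, which sulfates phenols, was at 273, 234 and 173 FPKM in CON and at 209, 254 and 198 FPKM in LKO. Its groups overlapped fully, with a log2 fold change of -0.02 (SE 0.22, 95% interval -0.54 to 0.49, limma adjusted p = 0.954). Sult1d1, which sulfates catecholamines, was at 65.1, 52.7 and 48.4 FPKM in CON and at 39.1, 52.4 and 67.9 FPKM in LKO, with the knockout libraries on both sides of the controls.

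Sult1b1, which sulfates thyroid hormones, was at 27.8, 17.5 and 13.2 FPKM in CON and at 12.4, 12.7 and 12.1 FPKM in LKO. CON 1 was high and the 3 knockout libraries lay just under CON 3. Its log2 fold change was -0.55 (SE 0.26, limma adjusted p = 0.247), and -0.28 without CON 1. Sult1c2 was at 2.82, 1.47 and 1.23 FPKM in CON and at 0.82, 0.81 and 1.07 FPKM in LKO, the third sulfotransferase without overlap. It reached the FPKM minimum only through CON, so the filter fixed its direction. Sult2a7 overlapped, at 3.67, 5.34 and 1.22 FPKM in CON and 0.84, 2.60 and 0.68 FPKM in LKO.

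Sult5a1 was at 7.17, 13.5 and 16.0 FPKM in CON and at 17.9, 15.4 and 18.3 FPKM in LKO, with a log2 fold change of 0.52 (SE 0.28, limma adjusted p = 0.286) that was 0.21 without CON 1. With median-ratio scaling the log2 fold change of Sult5a1 was 0.80, and its groups, which overlapped unscaled, no longer did. Sult1e1, the estrogen sulfotransferase, was at 0.85, 0.37 and 0.96 FPKM in CON and at 1.94, 0.59 and 10.6 FPKM in LKO. Only LKO 3 was high, and the log2 fold change of 1.15 was 0.34 without it. With a CON mean of 0.73 FPKM, Sult1e1 reached the FPKM minimum only through LKO, which fixed its direction. The genes Sult2a1 to Sult2a6 and Sult3a1, which are known from female mouse liver, had at most 0.22 FPKM in any library, and Sult3a2 was listed at 0.

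**Figure D4:**
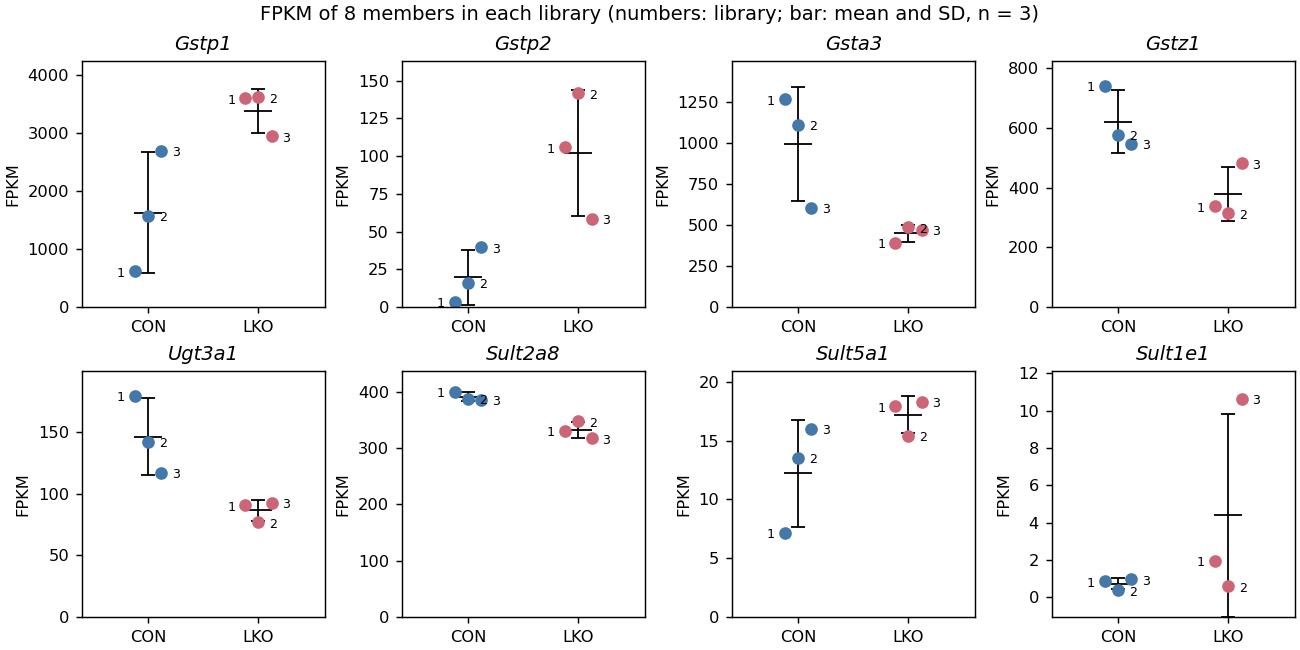
FPKM of 8 members, with points numbered by library and lines at the mean and SD of each group (n = 3). Gstp1 and Gstp2 lie higher in LKO with a wide spread in CON, Gsta3, Gstz1, Ugt3a1 and Sult2a8 lie lower without overlap, and Sult5a1 and Sult1e1 overlap.

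The control libraries also differed among themselves in other genes that differ between the sexes in mouse liver. All 6 libraries listed Xist at 0 and the Y-linked genes Ddx3y and Eif2s3y at 7.53 to 11.3 and 13.8 to 17.7 FPKM. Of 23 tested male-biased genes, 4 were higher at an unadjusted limma p under 0.05 (3.25% of all genes) and none lower, with a median log2 fold change of 0.72. After median-ratio scaling 7 were higher, with a median of 1.0. The median deviation of these genes from their CON mean was -0.82, -0.02 and 0.86 (log2) in CON 1 to 3 and 0.89, 0.42 and 0.96 in LKO 1 to 3. For Gstp1 the same deviations were -1.17, 0.20 and 0.97, then 1.39, 1.40 and 1.10.

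Of 15 tested female-biased genes, 8 were lower at that p (18.9% of all genes) and none higher, with a median of -0.92. After median-ratio scaling 5 were lower and 2 higher, with a median of -0.63. Their median deviation was 0.55, -0.10 and -0.29 in CON and -0.86, -1.02 and -0.60 in LKO, while Gsta3 deviated by 0.42, 0.23 and -0.65, then by -1.28, -0.96 and -1.0. Cyp2b9, a female-specific cytochrome P450, was at 155, 12.5 and 2.09 FPKM in CON and at 0.07, 0.06 and 0.40 FPKM in LKO. In Gstp1, Mup and the male-biased genes the controls were thus spread, with CON 1 lowest, CON 2 between and CON 3 nearest to the LKO libraries. The part of this pattern in the Gstp1 difference was not tested.

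**Figure D5:**
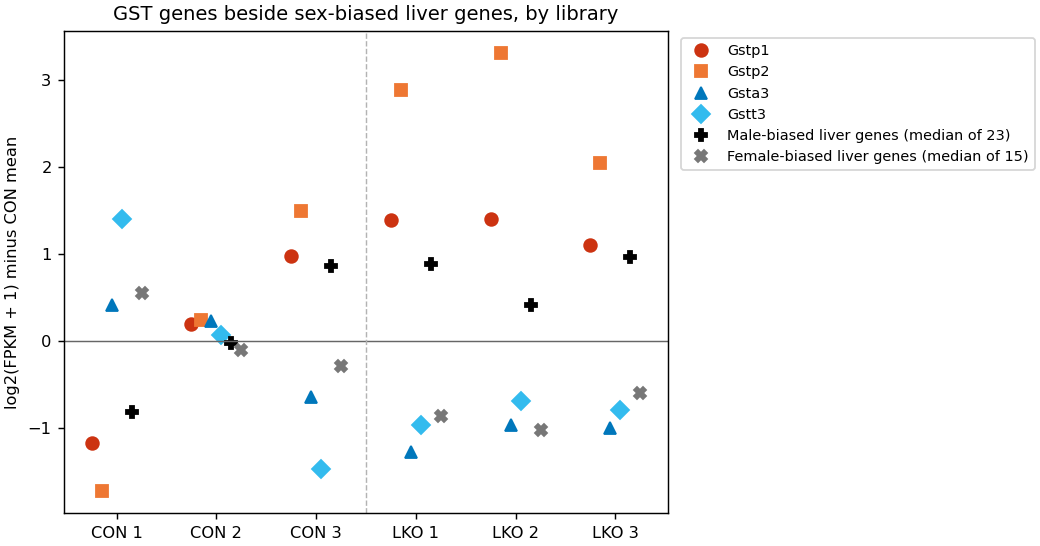
Deviation of each library from the CON mean (log2(FPKM + 1) scale) for Gstp1, Gstp2, Gsta3 and Gstt3, beside the median of 23 male-biased and 15 female-biased genes. Gstp1 and the male-biased genes are lowest in CON 1, and Gsta3 and the female-biased genes are above 0 there.

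Markers of other cells were compared by their summed levels. Of 11 cholangiocyte markers 4 reached the minimum, and their summed level was 35.9 to 59.4 FPKM in CON and 39.2 to 80.5 FPKM in LKO, with Anxa13 at 0. The 12 Kupffer cell markers summed to 199 to 281 FPKM in CON and 158 to 309 FPKM in LKO. The 10 markers of sinusoidal endothelium summed to 54.2 to 146 FPKM in CON and 67.4 to 104 FPKM in LKO, and the 11 of stellate cells and fibroblasts to 172 to 190.2 FPKM in CON and 171 to 300.2 FPKM in LKO. The summed level of 5 red blood cell markers ranged from 92.1 FPKM in CON 3 to 609.6 FPKM in CON 1. Of these 5 markers, 3 had a log2 fold change below 0 and 2 above, with a median of -0.13. Among them, only Alas2 was higher in each LKO library, at 38.8 to 49.9 FPKM in CON and 55.8 to 61.3 FPKM in LKO. The 6 neutrophil markers, with Ly6g at 0, summed to 5.3 to 10.3 FPKM in CON and 1.71 to 4.76 FPKM in LKO, which did not overlap. The 6 adipocyte markers, with Lep and Ucp1 at 0, summed to 17.9 to 65.1 FPKM in CON and 32.9 to 86.2 FPKM in LKO, and Fabp4 among them was higher in each LKO library, at 3.18 to 11.2 FPKM in CON and 12.5 to 14.6 FPKM in LKO. The 9 lymphocyte markers summed to 4.53 to 5.33 FPKM in CON and 4.11 to 6.53 FPKM in LKO. All 11 stellate cell and fibroblast markers had a log2 fold change above the median of all genes. What part these cells had in the members' differences was not tested. All 10 hepatocyte markers were present, with Alb between 16410 and 45751 FPKM.

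Genes that supply the cosubstrates were also examined. The counts of these lists are to be read against the 18.9% of all genes that were lower and 3.25% that were higher at an unadjusted limma p under 0.05, or 7.96% and 10.2% after median-ratio scaling. Of 5 tested genes for UDP-glucuronic acid, 2 were lower and none higher at that p, with a median log2 fold change of -0.50. After median-ratio scaling none was lower or higher, and the median was -0.21. Ugp2, which makes UDP-glucose, was at 137, 73.1 and 129 FPKM in CON and at 58.5, 46.2 and 83.1 FPKM in LKO. Ugdh, which oxidizes it to UDP-glucuronic acid, was at 41.8, 49.9 and 52.5 FPKM in CON and at 29.7, 20.2 and 61.8 FPKM in LKO. LKO 3 was above the controls and the other two were below them.

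Of 12 tested genes for PAPS and sulfate, 4 were lower and none higher at that p (median -0.47), and 3 were lower after median-ratio scaling (median -0.18). Slc35b2, the carrier of PAPS into the Golgi, was at 31.9, 27.4 and 28.2 FPKM in CON and at 17.1, 15.7 and 17.9 FPKM in LKO, without overlap. Slc26a1, a sulfate transporter, was at 44.5, 52.2 and 48.8 FPKM in CON and at 22.1, 22.1 and 34.2 FPKM in LKO. Papss2, which makes PAPS in liver, overlapped, at 57.9, 46.1 and 32.3 FPKM in CON and 25.6, 32.5 and 39.4 FPKM in LKO.

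Glutathione synthesis and recycling had 17 tested genes, of which 5 were lower and none higher at that p (median -0.38). After median-ratio scaling 2 were lower and 1 higher (median -0.08). Gclc, the catalytic subunit of the rate-limiting enzyme, was at 92.8, 93.2 and 90.1 FPKM in CON and at 41.5, 31.9 and 74.8 FPKM in LKO. Its groups did not overlap, and LKO 3 was nearest to the controls. The membrane-bound transferase Mgst1, which lies outside the soluble family, was at 4791 to 5399 FPKM in CON and at 4696 to 5852 FPKM in LKO, with a log2 fold change of 0.01 (limma adjusted p = 0.980).

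Among transporters that take up or export conjugates, 7 of 13 tested were lower and none higher at that p (median -0.45), and 3 were lower after median-ratio scaling (median -0.16). Slco1b2, which takes up conjugated bilirubin, was at 395, 298 and 343 FPKM in CON and at 159, 126 and 260.2 FPKM in LKO. Abcc2, which exports conjugates into bile, was at 126, 95.8 and 85.0 FPKM in CON and at 71.3, 71.0 and 78.2 FPKM in LKO. Neither pair of groups overlapped.

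Of 26 tested regulators of these genes, 11 were lower and none higher at an unadjusted limma p under 0.05 (18.9% of all genes were lower), with a median of -0.61. After median-ratio scaling 4 were lower (7.96% of all genes) and none higher, with a median of -0.31. Nr1i3, which encodes CAR, was at 136, 122 and 122 FPKM in CON and at 74.5, 88.7 and 67.5 FPKM in LKO (log2 fold change -0.72, limma adjusted p = 0.172). Ahr was at 9.94, 7.50 and 7.61 FPKM in CON and at 4.73, 4.47 and 5.36 FPKM in LKO. In both genes every LKO library, LKO 3 included, was below every CON library. Nr1i2 (PXR) and Nfe2l2 (NRF2) had log2 fold changes of -0.32 and -0.57.

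Target genes of these regulators outside the members lay on both sides of the median of all genes. Of 13 tested CAR and PXR targets, 3 were lower and 2 higher at an unadjusted limma p under 0.05 (median 0.07), and 1 was lower and 3 higher after median-ratio scaling (median 0.37). Cyp2b10, the classic CAR target, was at 122.6, 164 and 62.6 FPKM in CON and at 142, 143 and 540 FPKM in LKO, where LKO 3 alone was high, as it was in Sult1e1 and Ugt2b37. Of 16 tested NRF2 targets, 5 were lower and none higher, with a median of -0.33, and 3 were lower after median-ratio scaling, with a median of -0.08. Of the AHR targets only 2 were tested: Nqo1 had a log2 fold change of -0.59 and Cyp1a2 one of 0.36.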

How the data were processed

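Liver RNA-seq was measured in 6 libraries, 3 per group. The deposited values are FPKM per gene, made by the authors with HISAT2 and StringTie on the mouse build mm9, per the submitters' processing notes. Not given in the sources used here are versions, options, the annotation and any use of strand. A deposited length in bases, another measure, stands beside each gene per the file headers. The file held 56536 lines below its header, of which 2 continued a text, which left 56534 genes or loci (55536 Ensembl genes and 998 assembled loci). FPKM are not counts, so no count model was fitted, the depth in reads is unknown, and no interval from counting can be given. FPKM also depends on what the other genes of a library take up.

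Genes with a mean of at least 1 FPKM over the 6 libraries (11104) were taken to log2(FPKM + 1) and fitted in limma 3.58.1 (R 4.3.3) with group as the only term and a mean-variance trend. Tests were two-sided, with Benjamini-Hochberg adjustment over all 11104 genes and a threshold of 0.05. Fold changes refer to log2(FPKM + 1), so they understate differences of low genes, and SE is limma's moderated standard error. The script was tested on simulated data. Sequence tables were read with Python 3.11.15.

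The members, gene lists and tests were chosen with earlier results of these data known. Named in full, per family, were the 4 tested members with the highest mean, the 5 with the smallest p, and those on each side of the FPKM minimum. Of other lists, up to 4 genes with the smallest p and the defining gene could be named. Ugt1a2, Ugt1a8, Ugt1a10, Ugt2b34, Ugt2b38, Gstt1, Gstt3, Gsto1, Gstm7, Cyp2b9, Alas2, Fabp4 and the summed copies were added after their values were seen. Alternatives were another pseudocount, other filters, scalings and weights, removal of Mup and mitochondrial genes or of a length trend, a replicate block, and each library left out.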

Additional observations from a re-analysis of the deposited data

How the results depend on the processing

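The number of genes lower in LKO past the threshold (1 in limma) was 0 with a pseudocount of 0.1, with no filter, with a minimum of 5 FPKM, with the length trend removed and with the replicate block, 0 with median-ratio scaling without CON 1, 921 with median-ratio scaling without LKO 3, 4176 with array weights, and 0 to 2115 with 1 library left out. Genes higher numbered 1259 with median-ratio scaling without LKO 3, 1688 with array weights and 0 to 511 with 1 library left out. Members past it numbered 14 lower and 8 higher with array weights, against 37.6% and 15.2% of all genes. With median-ratio scaling without LKO 3 they numbered 3 and 4 (8.29% and 11.3% of all genes). With 1 library left out they numbered 0 to 8 and 0 to 5, the highest without LKO 3 (19.0% and 4.6% of all genes). The array weights ran from 0.196 (LKO 3) to 13.8 (LKO 1), so that fit rests mostly on 1 knockout library, and their estimation stopped before it converged. Median-ratio scaling combined with a library left out, and summed copies, were chosen after seeing the data.
At an unadjusted limma p under 0.05, members lower numbered 3 with median-ratio scaling, 0 (3.97% of all genes) and 5 (18.4%) with that scaling without CON 1 and without LKO 3, 18 (42.1%) with array weights, and 3 to 12 with 1 library left out, where members higher numbered 1 to 7. Members without overlap numbered 4 lower and 7 higher with median-ratio scaling, 6 and 7 with the length trend removed, 5 and 10 with median-ratio scaling without CON 1, 10 higher with that scaling without LKO 3, and 16 to 22 lower and 4 to 7 higher with 1 library left out. With median-ratio scaling without LKO 3, the members' share was below that of all genes in both directions. With it without CON 1, the share was below for lower and above for higher members. Unscaled, the same held without LKO 3, while without CON 1 the share was above in both. At that p, the unscaled share was below for lower and above for higher members, without LKO 3 as without CON 1. Shares for the other libraries left out are not given.
The median log2 fold change of the UGT family was -0.12 with median-ratio scaling, -0.26 with quantile normalization, -0.17 with the length trend removed, -0.11 and 0.008 with median-ratio scaling without CON 1 and without LKO 3, and -0.46 to -0.30 with 1 library left out. That of the SULT family was 0.14 with median-ratio scaling, 0.15 and 0.13 with that scaling without CON 1 and without LKO 3, and -0.24 to -0.09 with 1 library left out. That of the GST family was 0.15 and 0.20 with median-ratio scaling without CON 1 and without LKO 3, and -0.45 to -0.09 with 1 library left out. Cd36 was at -2.86 with array weights, -2.65 with median-ratio scaling without LKO 3, and -2.98 to -2.03 with 1 library left out, and passed the threshold in the first 2 settings and without LKO 3. The causes were not tested.
The sign of small differences reversed as follows. With median-ratio scaling the log2 fold change was 0.27 for Sult1a1, 0.21 for Sult1d1, 0.24 for Gstm1, 0.062 for Sult2a8, 0.062 for Gsto1, 0.0081 for Ugt2b5, 0.26 for Gsta4, 0.023 for Gstk1, 0.081 for Gstm5, 0.0090 for Gsta1 and Gsta2 summed, and 0.18 for the Gstm genes summed. With that scaling without CON 1 it was 0.36 for Sult1a1, 0.28 for Sult1d1, 0.52 for Gstm1, 0.023 for Sult2a8, 0.041 for Gsto1, 0.0015 for Ugt2b36, 0.18 for Gstm3, 0.11 for Gstt3, 0.013 for Gstm7, 0.40 for Gsta2, 0.56 for Gsta4, 0.15 for Gstk1, 0.13 for Gstm2, 0.084 for Gstm5, 0.27 for Gstm6 and 0.26 for Ugt1a5. With it without LKO 3 it was 0.42 for Sult1a1, 0.092 for Sult1d1, 0.48 for Gstm1, 0.17 for Sult2a8, 0.20 for Gsto1, 0.062 for Ugt2b5, 0.0082 for Ugt2b36, 0.14 for Gsta2, 0.30 for Gsta4, 0.24 for Gstk1, 0.051 for Gstm2, 0.20 for Gstm4, 0.33 for Gstm5, 0.094 for Gstm6, 0.37 for Ugt1a5 and 0.0085 for Nr1i2. Quantile normalization gave 0.051 for Sult1a1, 0.099 for Sult1d1, 0.15 for Gsta4, 0.071 for Gstm5 and -0.62 for Mgst1. Removing the length trend gave 0.040 for Sult1a1 and 0.15 for Sult1d1. Array weights gave 0.0065 for Sult1a1, 0.084 for Gstm1, 0.14 for Gsta4, 0.061 for Gstk1, 0.27 for Ugt1a5 and -0.0079 for Cyp1a2, and removing Mup and mitochondrial genes gave -0.016 for Mgst1. With 1 library left out, Sult1a1 ranged from -0.20 to 0.12, Sult1d1 from -0.27 to 0.12, Gstm1 from -0.26 to 0.27, Gstt1 from -0.28 to 0.44, Gsta2 from -0.55 to 0.20, Gsta4 from -0.31 to 0.32, Gstm6 from -0.49 to 0.034, Gstt2 from -0.12 to 0.42, Ugt1a5 from -0.89 to 0.025 and Mgst1 from -0.078 to 0.081. Without CON 1, Gsta1 and Gsta2 summed gave 0.26 and the Gstm genes summed 0.20, and without LKO 3 the latter gave 0.031.
The other tested members, and the other genes that were recomputed, kept their direction in these settings. With the replicate block, 11 members were lower and 9 higher at an unadjusted limma p under 0.05, and none passed the threshold. The shares of all genes at that p are not given for this fit, so these counts cannot be set against them. The numbers give no pairing, since deviations of same-numbered libraries correlated by -0.05, 0.17 and 0.07. The depth in reads is unknown, which limits what can be said of genes listed at or near 0.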

Other observations

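Other enzymes that conjugate or hydrolyse the same kinds of compound were not members by name. Of 25 tested, 9 were lower and none higher in LKO at an unadjusted limma p under 0.05 (18.9% of all genes were lower), with a median log2 fold change of -0.46. After median-ratio scaling 4 were lower (7.96% of all genes), with a median of -0.17. Acsm3, a medium-chain acyl-CoA synthetase, was at 76.8, 63.3 and 35.2 FPKM in CON and at 17.8, 15.5 and 26.8 FPKM in LKO. Aox3, an aldehyde oxidase, was at 138, 113 and 102 FPKM in CON and at 61.3, 51.1 and 71.8 FPKM in LKO. Hnmt, which methylates histamine, was at 15.1, 8.13 and 6.08 FPKM in CON and at 2.94, 3.14 and 4.02 FPKM in LKO. As3mt, which methylates arsenic, was at 20.9, 23.4 and 20.6 FPKM in CON and at 12.9, 10.4 and 15.8 FPKM in LKO. In each of these 4 genes every LKO library was below every CON library, as for 10 of the 25 genes (40.0%; 24.3% of all genes tested).

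Of 14 genes that mark the pericentral zone of the liver lobule, 4 were lower and none higher at that p (median -0.32), and of 15 periportal genes 5 were lower and none higher (median -0.46), against 18.9% and 3.25% of all genes. After median-ratio scaling none of the pericentral genes was lower and 1 was higher (median -0.07), while 2 periportal genes were lower and 1 higher (median -0.16).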
